A study of Oryza sativa Indica Group with 2 samples.

Results

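The growth-regulating factors (GRFs) of rice other than OsGRF7 were examined in RNA from seedlings of 2 genotypes, a wild type (WT) and a line that overexpresses OsGRF7 (GRF7OE). The members were the rows of the deposited gene table that carry the RAP identifiers of OsGRF1, OsGRF2, OsGRF3, OsGRF4, OsGRF6, OsGRF8, OsGRF9, OsGRF10, OsGRF11 and OsGRF12, 10 of 35677 genes, and all 10 identifiers were found. OsGRF5 was not analysed here. The plants were of the Indica group, field-grown at Wuhan over the summer months and sampled at the tillering stage, when side shoots form. One library was made per genotype. The library is labelled GRF7OE-1, without saying whether the number counts a line or a replicate. The labels do not name the promoter that drives OsGRF7. The green tissue of a seedling was plain in both libraries, since the 15 genes described as chlorophyll a-b binding proteins had a median of 2193 FPKM in GRF7OE and 1659 in WT, where the median of all expressed genes was 10.3 in each. FPKM, the deposited unit, divides the reads of a gene by its transcript length and by the size of the library.

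GRFs are plant transcription factors that carry a QLQ domain, which binds GRF-interacting factor (GIF) coactivators, and a WRC domain, which binds DNA. They act mostly in young, dividing tissue, where they favour cell proliferation, and the microRNA miR396 limits their transcripts as organs mature. Rice members are known for roles in stem elongation, panicle branching, floral organs and grain size. The series concerns how miR396e and OsGRF7 shape plant architecture, and the paralogs show what the rest of the family looked like when OsGRF7 was raised.

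About 17021467 reads were assigned to genes in GRF7OE and 16824988 in WT. Each genotype is a single library, so differences between them cannot be set against the spread between plants, and the genotypes were not tested. A bracket after a ratio is its 95% exact (Clopper-Pearson) interval, computed from read numbers, and reflects counting error alone. In whole seedlings, fewer cells of a type and less RNA per cell cannot be told apart.

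The overexpressed gene checks the labels, which is of use because a direction column of the deposited table is headed as an RNAi line while its value columns are headed as overexpression. OsGRF7 (OS12G0484900) had 70.7 FPKM in GRF7OE and 5.10 in WT, a ratio of 13.9 [11.9 to 16.2]. In WT it was an ordinary member, ranking 6 of the 11 GRFs measured, between OsGRF9 and OsGRF4. In GRF7OE it ranked 1, above OsGRF11, which was the most abundant of these GRFs in WT.

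None of the 10 paralogs differed by 2-fold or more between the libraries on the log2(FPKM + 1) scale, a scale that shrinks the ratios of lowly expressed genes. Over the 23397 genes that averaged at least 1 FPKM, 4.49% did. All 10 paralogs passed that filter. Of these, 6 were above 0 on this log2 scale and 4 below, with a median of 0.10, beside a median of -0.01 over all genes, of which 48.3% were above 0. The lowest log2 ratio was -0.59, for OsGRF3, and the highest 0.58, for OsGRF12. The counting interval excluded a ratio of 1 for 4 paralogs, 2 higher in GRF7OE (OsGRF9 and OsGRF12) and 2 lower (OsGRF3 and OsGRF8). That is no more than the transcriptome as a whole shows, since 49.7% of all genes have such an interval at this depth. In the authors' deposited table none of the 10 is called significant, against 1.18% of all its genes, and their FDR runs from 0.734 for OsGRF3 to 0.9999.

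**Figure D1:**
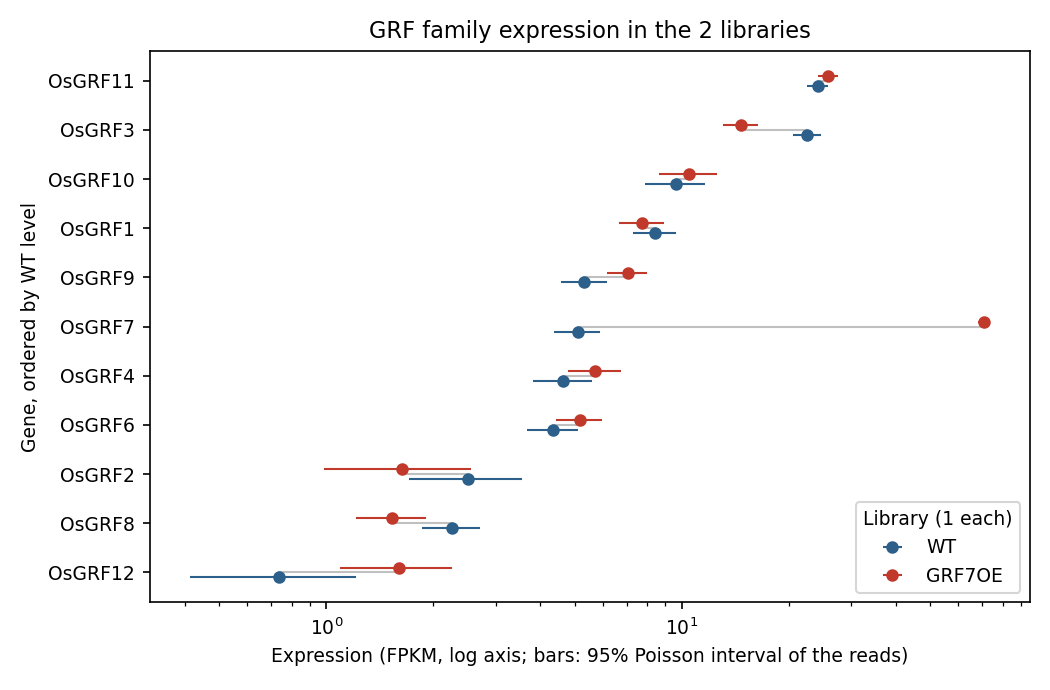
Expression of the 11 GRF genes in the 2 libraries, in FPKM on a log axis, ordered by their level in WT; bars are 95% Poisson intervals from the reads and cover counting error only. OsGRF7 moves from 5.10 to 70.7 FPKM, while the paralogs lie between a ratio of 0.651 for OsGRF3 and 2.17 for OsGRF12.

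The members spanned a wide range of expression. In WT they ran from 0.737 FPKM for OsGRF12 to 24.1 for OsGRF11, a 32.7-fold span, with a median of 4.98. In GRF7OE they ran from 1.53 FPKM for OsGRF8 to 25.8 for OsGRF11, a 16.9-fold span, with a median of 6.37. The order was nearly the same in both libraries and differed only among the lowest genes, where OsGRF12 was below OsGRF8 in WT and above it in GRF7OE. Levels fell into tiers in WT, with OsGRF11 and OsGRF3 at the top, then OsGRF10 and OsGRF1, then OsGRF9, OsGRF4 and OsGRF6, then OsGRF2 and OsGRF8, and OsGRF12 last. Within each WT tier the Poisson intervals of neighbours overlapped, and between tiers they did not. In GRF7OE the intervals of OsGRF11 and OsGRF3 no longer overlapped, those of neighbours from OsGRF10 down to OsGRF6 did, and OsGRF2, OsGRF12 and OsGRF8 formed the lowest group. Levels depend on the transcript models behind them, and these differ. A level of 1 FPKM stood for 10.7 to 51.6 reads among the members, lowest for OsGRF10 and highest for OsGRF8.

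OsGRF11 and OsGRF3 were the leading paralogs and together held 55.2% of the summed paralog FPKM in WT and 49.8% in GRF7OE. OsGRF11 (OS07G0467500, chromosome 7) had 25.8 FPKM in GRF7OE and 24.1 in WT, on about 893 and 833 reads. Its ratio of 1.07 [0.974 to 1.18] has the narrowest interval among the members. OsGRF3 (OS04G0600900, chromosome 4), reported in rice to bind the promoter of a KNOX homeobox gene, stood at 14.7 FPKM in GRF7OE and 22.5 in WT, on about 296 and 460 reads. It was 1.54-fold lower in GRF7OE [1.32 to 1.78]. On the log2(FPKM + 1) scale it was the only paralog past 1.5-fold, with OsGRF12 just inside that limit, and 14.0% of all genes were past it in either direction. The comparison within a library does not depend on how libraries are scaled. In WT the OsGRF3 level was 0.934 times that of OsGRF11 [0.832 to 1.05], and in GRF7OE 0.567 times [0.496 to 0.648]. The pair was chosen after its values were seen.

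**Figure D2:**
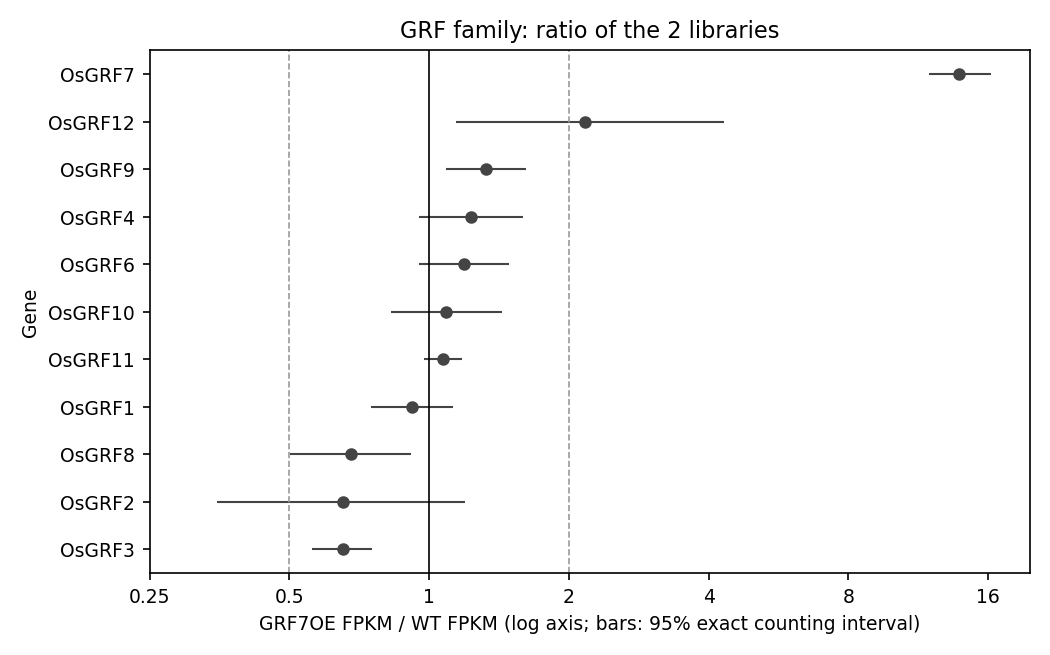
Ratio of GRF7OE to WT FPKM for each GRF gene on a log axis, with 95% exact counting intervals; the solid line marks equality and the dashed lines 2-fold. OsGRF7 stands alone at 13.9, and the intervals of OsGRF3, OsGRF8, OsGRF9 and OsGRF12 do not reach 1.

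The WT tier below the top, OsGRF10 and OsGRF1, differed little between the libraries. OsGRF10 (OS02G0678800, chromosome 2), reported in rice to act with GIF1 on floral genes and with OsGRF3 on a KNOX gene, had 10.5 FPKM in GRF7OE and 9.62 in WT, a ratio of 1.09 [0.827 to 1.43]. OsGRF1 (OS02G0776900, chromosome 2) was first found in rice as a gibberellin-induced gene of the elongating stem, and the deposited annotation also ties it to the response to gibberellin. It had 7.72 FPKM in GRF7OE and 8.40 in WT, a ratio of 0.920 [0.750 to 1.13]. For both genes the libraries differed by less than counting error.

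OsGRF9, OsGRF4 and OsGRF6, which were close to OsGRF7 in WT, were each somewhat higher in GRF7OE. OsGRF9 (OS03G0674700, chromosome 3) was at 7.04 FPKM against 5.32 in WT, on about 238 and 177 reads, a ratio of 1.32 [1.09 to 1.62]. OsGRF4 (OS02G0701300, chromosome 2), the gene of the grain size locus GS2, was at 5.71 FPKM against 4.63, a ratio of 1.23 [0.952 to 1.60]. OsGRF6 (OS03G0729500, chromosome 3), known for a part in panicle branching, was at 5.16 FPKM against 4.35, a ratio of 1.19 [0.950 to 1.48]. Only the interval of OsGRF9 excluded 1, and 24.4% of all genes have an interval above 1. In WT the levels of these 3 genes were 1.04, 0.909 and 0.853 times that of OsGRF7. In GRF7OE the OsGRF7 level was 10.05 times that of OsGRF9, 12.4 times that of OsGRF4 and 13.7 times that of OsGRF6.

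The members of the lowest WT tiers, OsGRF2, OsGRF8 and OsGRF12, had the least certain ratios. OsGRF8 (OS11G0551900, chromosome 11), reported in rice in the defence against an insect pest, had 1.53 FPKM in GRF7OE and 2.25 in WT, on about 79 and 111 reads. It was 1.47-fold lower in GRF7OE [1.09 to 1.99], and 25.3% of all genes have an interval below 1. OsGRF2 (OS06G0204800, chromosome 6) had 1.64 FPKM in GRF7OE and 2.51 in WT, on about 19 and 31 reads. Its ratio of 0.653 [0.348 to 1.19] is almost the same as that of OsGRF3, but at this depth a difference from 1 was not detectable. OsGRF12 (OS04G0574500, chromosome 4) had 1.60 FPKM in GRF7OE and 0.737 in WT, on about 32 and 15 reads. Its plain ratio of 2.17 [1.14 to 4.31] is past 2-fold while its log2(FPKM + 1) ratio of 0.58 is not, so its side of the 2-fold limit depends on the pseudocount.

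**Figure D3:**
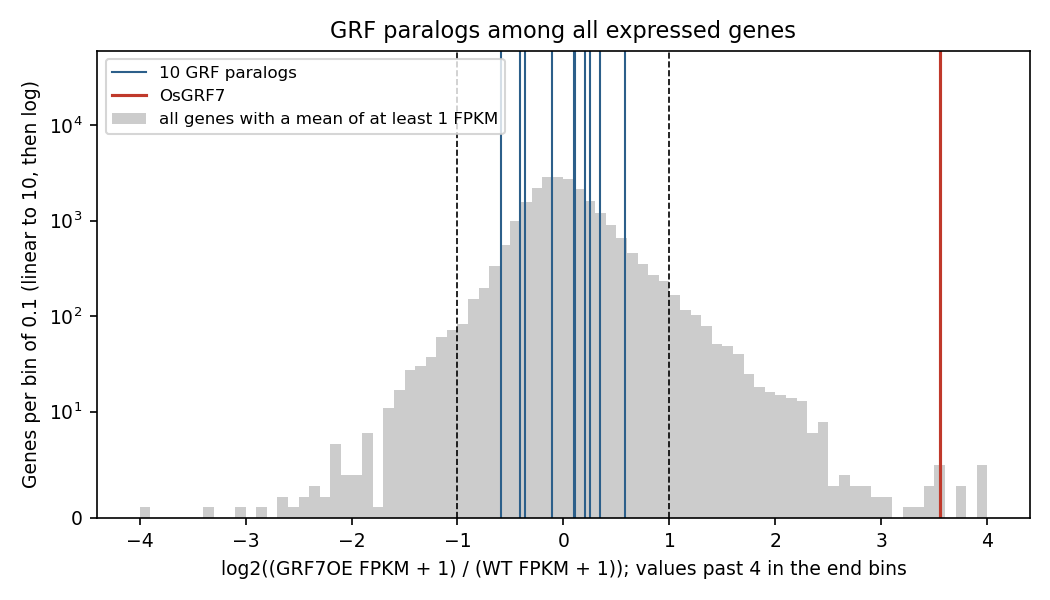
Distribution of log2((GRF7OE FPKM + 1) / (WT FPKM + 1)) over the 23397 expressed genes, with the 10 paralogs as blue lines, OsGRF7 as a red line and 2-fold as dashed lines; the vertical axis is linear to 10 genes and logarithmic above. The paralogs lie between -0.59 and 0.58, inside the bulk of the distribution, and OsGRF7 is at 3.56.

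OsGRF10 and OsGRF12 are assigned to the same orthologous group, NOG267258, in the deposited annotation, where the other paralogs with such a group each have one of their own. Their levels were far apart in both libraries. OsGRF10 was 13.0 times as high as OsGRF12 in WT [7.56 to 24.1] and 6.54 times in GRF7OE [4.38 to 10.02], and these intervals overlap. Nuclear localisation is annotated for 9 of the 10 members, and OsGRF4 has no such term. The protein entries behind the rows are from 156 residues for OsGRF8 to 456 for OsGRF6. Another 4 rows of the table are described as similar to OsGRF1 or OsGRF2, and all 4 had 0 reads in both libraries, so they took none of the reads of the named members.

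Summed over the 10 paralogs, expression came to 81.4 FPKM in GRF7OE and 84.5 in WT. The ratio of the sums was 0.963, with a 95% interval of 0.903 to 1.03 from Poisson counting error. In the deposited values the paralogs were thus 3.09 FPKM lower in sum, beside 65.6 FPKM more of OsGRF7. The interval leaves out the scaling of the libraries, and the ratio was 0.904 with both scaled to the same FPKM sum. With OsGRF7 included, the measured family came to 152 FPKM in GRF7OE and 89.6 in WT, 1.70 times as much. OsGRF5 was not analysed and is missing from this sum and from the shares of it. The makeup of this pool differed accordingly. OsGRF7 held 5.69% of it in WT and 46.5% in GRF7OE, OsGRF11 26.9% and 17.0%, and OsGRF3 25.2% and 9.64%. Every other paralog held 10.7% or less in WT and 6.88% or less in GRF7OE, the highest of them being OsGRF10. That rank rests on the length scaling, since by the count columns OsGRF10 held 4.49% in WT and 2.39% in GRF7OE, less than OsGRF1 in WT (8.65%) and OsGRF9 in GRF7OE (5.07%). OsGRF12 was the 1 paralog whose share was larger in GRF7OE, at 1.05% against 0.823%. This rests on about 32 and 15 reads, and no interval was computed for the difference. By the count columns its share was 0.682% against 0.630%.

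**Figure D4:**
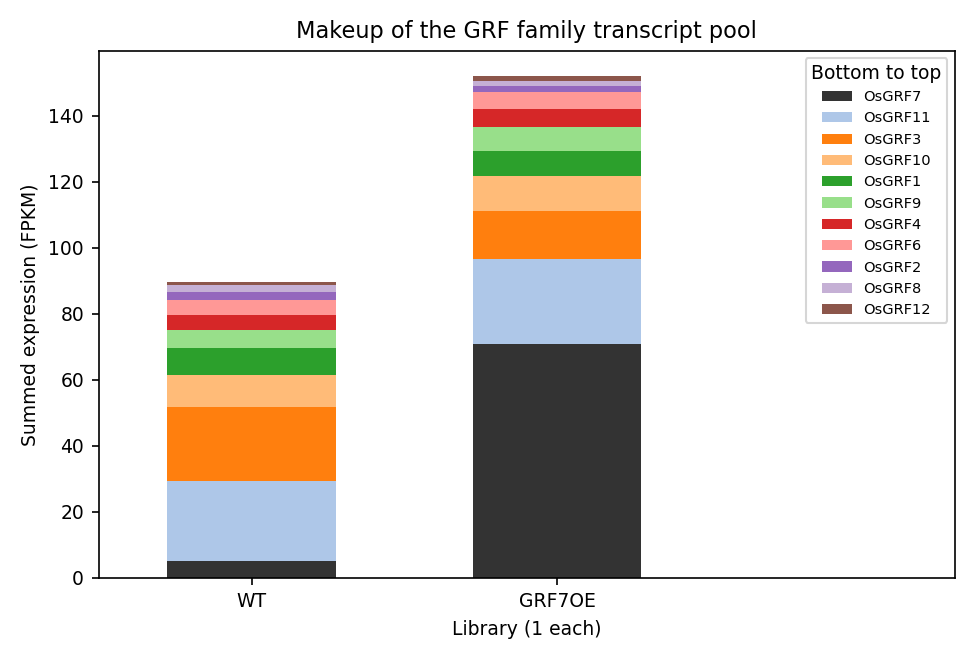
Summed FPKM of the 11 GRF genes in each library, stacked by gene with OsGRF7 at the bottom. The family sum is 89.6 FPKM in WT and 152 in GRF7OE, and the part above OsGRF7, the paralogs, is 84.5 and 81.4.

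The GIF coactivators, which bind the QLQ domain, were close to WT. GIF1 (OS03G0733600), a partner of OsGRF4 and other GRFs in rice, had 10.2 FPKM in GRF7OE and 11.6 in WT, a ratio of 0.879 [0.740 to 1.04]. GIF2 (OS11G0615200), the most abundant of them, had 36.0 FPKM and 33.9, a ratio of 1.06 [0.946 to 1.19]. GIF3 (OS12G0496900) had 21.2 FPKM and 22.1, a ratio of 0.962 [0.822 to 1.13]. All 3 differed by less than counting error, and they summed to 67.5 FPKM in GRF7OE and 67.6 in WT. Set against this sum, the measured GRF family with OsGRF7 was 2.25 times as abundant in GRF7OE and 1.32 times in WT. Without OsGRF7 the values were 1.21 and 1.25. By their RAP identifiers OsGRF6 and GIF1 lie in the same region of chromosome 3 with 27 genes of the table between them.

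Of the genes through which microRNAs such as miR396 act, AGO1B and AGO1A stood furthest below WT in GRF7OE, while DCL1 differed by less than counting error. All 6 listed genes had a log2 ratio below 0, as had 51.7% of all genes, and the median was -0.30. AGO1B (OS04G0566500), an argonaute that carries microRNAs to their targets, had 33.6 FPKM in GRF7OE and 83.8 in WT and was 2.50-fold lower [2.39 to 2.61]. The authors' deposited table calls it significant, with an FDR of 0.00375. AGO1A (OS02G0672200), an argonaute of the same clade, had 32.5 FPKM in GRF7OE and 64.1 in WT and was 1.97-fold lower [1.88 to 2.07], without a significant call there. AGO1B was the 1 gene of the list past 2-fold lower on the log2(FPKM + 1) scale, where 1.25% of all genes were. AGO1A joined it under scaling to equal FPKM sums (-1.05) and in the count columns (-1.01). In these settings 960 of 23296 and 1614 of 23397 genes were past 2-fold in either direction. The other genes were closer to WT. AGO1C was 1.32-fold lower [1.22 to 1.44] and AGO1D 1.15-fold lower [1.06 to 1.24]. HEN1, which methylates small RNAs and so protects them, was 1.20-fold lower [1.01 to 1.42]. DCL1, which cuts microRNAs from their precursors, had 13.1 FPKM in GRF7OE and 13.6 in WT, a ratio of 0.969 [0.778 to 1.21]. The DCL1 row rests on a short model, with a protein entry of 244 residues. In GRF7OE 1 FPKM stood for 12.6 reads of DCL1, against 75.1 of AGO1A. Its values may therefore cover only part of the gene. The 4 AGO1 genes summed to 94.8 FPKM in GRF7OE and 183 in WT. How reads were divided between such similar genes is uncertain. The microRNA itself was not measured in these libraries.

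**Figure D5:**
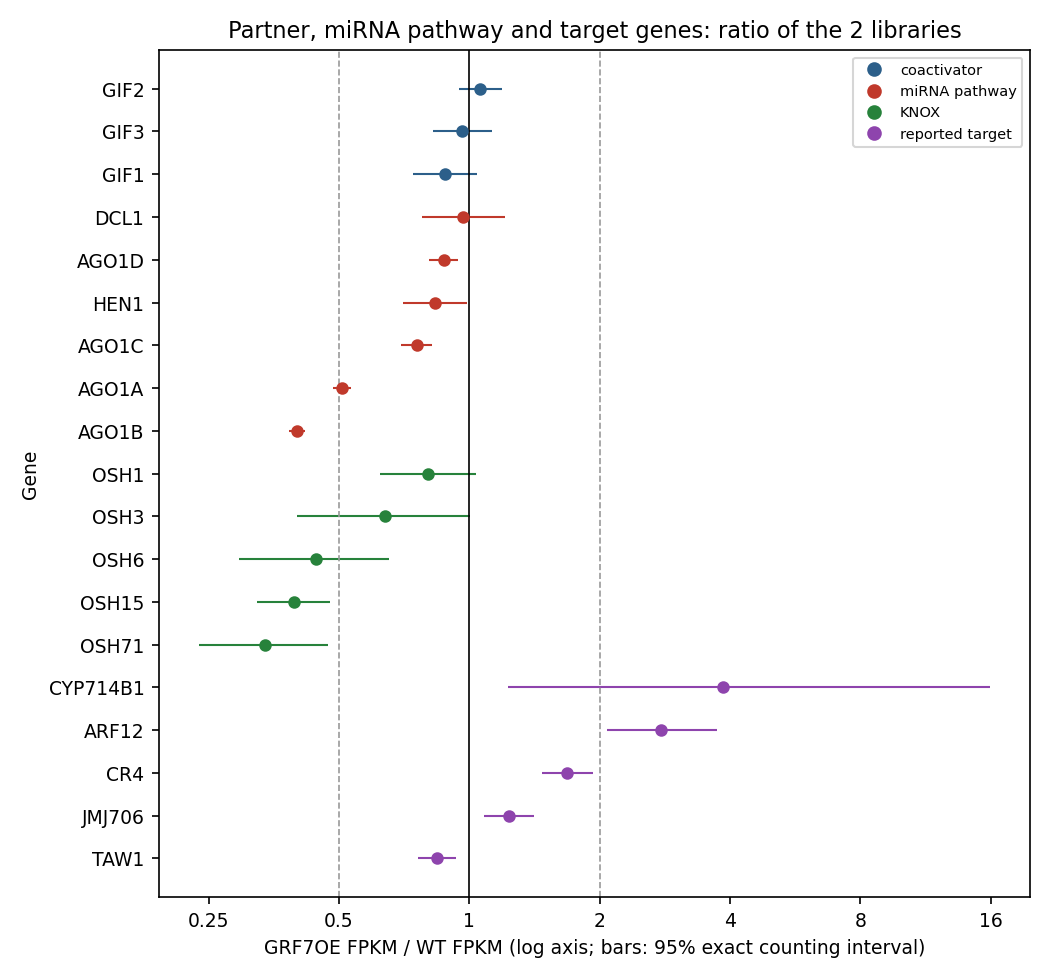
Ratio of GRF7OE to WT FPKM on a log axis, with 95% exact counting intervals, for GIF coactivators, miRNA pathway genes, KNOX genes and genes reported as GRF targets that averaged at least 1 FPKM; dashed lines mark 2-fold. The 3 GIF intervals hold 1, AGO1B is at 0.401, OSH71 at 0.337 and ARF12 at 2.77.

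Genes reported in rice as targets of individual GRFs did not all differ in the same direction. Of the KNOX genes below, only OSH71 is named here as such a target. KNOX homeobox genes keep shoot meristem cells undifferentiated, and OSH71 among them is reported as repressed by OsGRF3 and OsGRF10. OSH71 (OS05G0129700) had 1.44 FPKM in GRF7OE and 4.27 in WT, a ratio of 0.337 [0.237 to 0.472]. In the same library OsGRF3 was lower than in WT and OsGRF10 close to WT, and a link between these levels was not tested. Of the 6 KNOX genes 5 had a mean of at least 1 FPKM, all 5 with a log2 ratio below 0, as had 51.7% of all genes. On the log2(FPKM + 1) scale 2 were past 2-fold lower (OSH71 and OSH15), where 1.25% of all genes were. OSH15 (OS07G0129700), a KNOX gene of stem internodes, had 6.02 FPKM against 15.3, a ratio of 0.394 [0.323 to 0.477], and in the authors' deposited table it has a significant call with an FDR of 0.0322. OSH6 (OS01G0302500) had 1.43 FPKM against 3.23, a plain ratio of 0.441 [0.293 to 0.654]. Its log2 ratio was -0.80 with a pseudocount of 1, -1.13 with 0.1 and -1.14 from the count columns. In the latter settings 3 KNOX genes were past 2-fold lower, but more of all genes were past 2-fold too. Past it in either direction were 1659 of 23397 genes with a pseudocount of 0.1 and 1614 from the count columns. The main setting had 1051. OSH1, which maintains the shoot meristem, was nearer to WT at 4.74 FPKM against 5.90, a ratio of 0.803 [0.622 to 1.04]. OSH3 had 1.25 FPKM against 1.96, a ratio of 0.639 [0.401 to 1.01]. OSH43 was on 6 reads against 13, too few for its ratio to be told from 1.

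Among the genes reported downstream of OsGRF6 and OsGRF10, CR4 (OS03G0637800), a receptor kinase of the crinkly type, had 6.83 FPKM in GRF7OE and 4.06 in WT, a ratio of 1.68 [1.47 to 1.93]. JMJ706 (OS10G0577600), described in the table as a jumonji-type histone demethylase, had 6.13 FPKM against 4.97, a ratio of 1.23 [1.08 to 1.41]. TAW1 (OS10G0478000), a regulator of panicle branching, lay on the other side at 62.6 FPKM against 74.3, a ratio of 0.843 [0.763 to 0.930]. The auxin synthesis gene YUCCA1 (OS01G0645400) had about 17 reads against 10, a ratio of 1.75 [0.757 to 4.28]. MOC3, a gene needed for tiller buds, had 0 reads in both libraries, which allows up to 3 reads in each. The genes tied to OsGRF7 by the study were CYP714B1, a gibberellin oxidase, and ARF12, an auxin response factor. CYP714B1 had about 15 reads against 4, a ratio of 3.85 [1.23 to 16.0], and ARF12 about 175 against 67, a ratio of 2.77 [2.08 to 3.73]. They were the 2 of the 5 expressed genes of this list past 2-fold higher, where 3.24% of all genes were. CYP714B1 came to a log2 ratio of 0.97, under 2-fold, with both libraries scaled to the same FPKM sum. Its row rests on a short model, with a protein entry of 116 residues. In GRF7OE 1 FPKM stood for 6.79 reads of it, so its values may cover only part of the gene. Both genes were listed because the study had tied them to OsGRF7, so this count is no independent support. The authors' deposited table calls neither significant.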

How the data were processed

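The authors deposited 1 table of 35677 genes with RAP and MSU identifiers. Bowtie and Cuffdiff were run, per the submitters' processing notes. The sources used here give neither their versions nor a genome build. FPKM columns were used as deposited. The deposited normalised count columns hold a signal per gene made of steps of 0.963 (GRF7OE) and 0.954 (WT), taken as the worth of 1 read. Among values above 0 and below 10000, 99.3% (GRF7OE) and 99.2% (WT) lay within 0.05 of a whole number of steps, and reads were recovered by division. The deposited p-value and FDR columns compare the 2 libraries, and by the header a significant call combines FDR <= 0.05 with a log2 change of 1 or more in size.

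Computed here were plain FPKM ratios with Clopper-Pearson intervals from the reads, scaled by FPKM per read, log2 ratios with a pseudocount of 1, Poisson intervals of levels, and sums. Counts over lists use genes averaging at least 1 FPKM. Members and lists were chosen with earlier results of these data known. The named genes are all members, OsGRF7 and 22 listed partner, pathway and target genes whose RAP identifier the table describes accordingly. With 2 libraries each gene has a single ratio, so no gene was named for a similar pattern. Chromosomes are those in the RAP identifiers. A RefSeq gene table (assembly ASM3414082v1) names 8 of the 10 members, all 8 on the same chromosome, and no sequence or coordinate was used. The steps were tested on simulated reads. The alternatives were other pseudocounts, filters, scalings, fold sizes and the count columns. The work ran in Python 3.11.15 with pandas 2.3.3, NumPy 2.4.6, Matplotlib 3.10.9 and SciPy 1.17.1.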

Additional observations from a re-analysis of the deposited data

How the results depend on the processing

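Each paralog kept its sign under both scalings and in the count columns (another pseudocount or filter cannot turn a sign). All 66 recomputed log2 ratios stayed within their counting interval, placed around the main log2 value. Of these, 10 without a filter and 6 with the higher filter repeat the main value by construction. The number of paralogs at 2-fold or more, 0 as reported, was 1 with a pseudocount of 0.1 and 1 from the normalised count columns, OsGRF12 both times. It was 1 with a limit of 1.5-fold, which is OsGRF3. Of all 23397 genes, 1659 were past 2-fold with a pseudocount of 0.1 and 1614 from the count columns. At 1.5-fold the share of all genes was 14.0%. The number whose interval excludes 1, 4 as reported, was 2 at a mean of at least 5 FPKM, a filter that leaves 6 paralogs. The share of all genes with such an interval is not given for that filter. The median ranged from 0.02, with both libraries scaled to the same FPKM sum, to 0.12, with the median ratio of all genes scaled to 1. The ratio of the paralog sums was 0.904 and 0.975 under these scalings. With the same FPKM sum the sign of GIF2 turned to -0.01, AGO1B came to -1.38, AGO1A to -1.05 and CYP714B1 to 0.97, under 2-fold. AGO1A was past 2-fold there and in the count columns, at -1.01, and OSH6 with a pseudocount of 0.1 and in the count columns, at -1.13 and -1.14. From the count columns, which do not allow for transcript length, the share of OsGRF7 in the family was 53.7% in GRF7OE and 7.56% in WT, and 17 of the 22 shares of single genes moved by more than counting error. No paired analysis was possible because each genotype has 1 library, and for the same reason none could be left out. Depth limits OsGRF2 and OsGRF12 most, with at most 32 reads per library.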
